A study of Mus musculus with 24 samples.

Results

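Astrocytes clear glutamate, potassium and water from the space around synapses, and 9 genes that carry out this work were followed across the mRNAseq libraries of an intracortical kainic acid mouse model of mesial temporal lobe epilepsy. They were chosen by name, as 9 of the 53379 genes in the count table: the glutamate transporters Slc1a2 (GLT-1) and Slc1a3 (GLAST), glutamine synthetase Glul, the inward rectifier potassium channel Kcnj10 (Kir4.1), the sodium pump subunit Atp1b2, the sodium bicarbonate cotransporter Slc4a4 (NBCe1), the water channel Aqp4, and the connexins Gja1 (connexin 43) and Gjb6 (connexin 30). KA mice were adult male C57/BL6N animals, bought at 8 weeks of age and acclimatized for 4 weeks, that received kainic acid into the deep cortex above the right hippocampus and had convulsive seizures. SH mice of the same strain, sex and age underwent the same anaesthesia and surgery and received saline. Right hippocampi were taken at 24 hours from 8 mice per treatment. Each treatment had 3 pools, in which replicate 1 combined 4 animals and replicates 2 and 3 combined 2 each. Sorting split every pool into NeuN+ nuclei, called neurons, and NeuN- nuclei, called glia, which gave 12 libraries in 4 groups of 3 (KA glia, SH glia, KA neurons and SH neurons). Astrocytes were not sorted on their own: the NeuN- fraction also holds oligodendrocytes, microglia and cells of blood vessels, and only nuclear RNA was measured.

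In the healthy hippocampus, glutamate released by neurons is taken up by Slc1a2 and Slc1a3 together with sodium and turned into glutamine by Glul, and the sodium is pumped out again by ATPases that contain subunits such as Atp1b2. Potassium that leaves firing neurons enters astrocytes through Kcnj10 and spreads through gap junctions built from Gja1 and Gjb6. Aqp4 lets water follow, mainly at the astrocytic endfeet on blood vessels, and Slc4a4 carries bicarbonate and so affects the pH on both sides of the membrane. Loss of these functions in epileptic tissue has long been studied because raised extracellular potassium and glutamate make neurons fire more easily.

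Values are CPM, read counts scaled to library size with TMM factors over the 12 libraries. KA and SH were compared with the quasi-likelihood test of edgeR, in which logFC is a difference on the log2 scale and FDR is the p value adjusted by the Benjamini-Hochberg method over the 37598 genes tested, with a threshold of 0.25. All 9 genes passed the filter on low counts. Libraries held between 7769400 and 40364768 reads. Those of replicate 3 stood apart, with 36165 to 42160 genes detected against 40660 to 47748 in the others, and SH glia replicate 1 and KA glia replicate 2 were made from 0.05 ng RNA with 15 PCR cycles in place of 1 ng with 10. KA and SH libraries with the same replicate number deviated together from their group means, most of all those of replicate 3. A blocked fit, which compares KA with SH within pairs of the same number, is therefore given beside the results for the 9 genes, and as counts for the other lists where it changed them. Whether replicates 1 and 2 form pairs by number was not settled.

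Gja1 (chromosome 10 from 56377330 to 56402513 in GRCm38, plus strand) and Gjb6 (chromosome 14 from 57123303 to 57133611, minus strand) had the largest logFC of the 9 genes in glia, so the 250 bases before their RefSeq start sites are shown. They were searched on both strands for TGANTCA (the AP-1 motif), TTCNNNGAA (STAT) and AACAAT (SOX), and capitals mark a match. RefSeq promoters of the GRCm38.p6 build were searched for 7 of the 9 genes. Those of Aqp4 and Atp1b2 were not examined.
Gja1 promoter, chr10:56377050-56377299, plus strand: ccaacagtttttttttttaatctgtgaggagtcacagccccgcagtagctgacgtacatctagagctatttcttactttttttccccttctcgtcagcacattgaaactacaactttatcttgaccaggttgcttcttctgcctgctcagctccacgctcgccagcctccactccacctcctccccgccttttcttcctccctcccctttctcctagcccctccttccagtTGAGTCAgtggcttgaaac
Gjb6 promoter, chr14:57133612-57133861, minus strand: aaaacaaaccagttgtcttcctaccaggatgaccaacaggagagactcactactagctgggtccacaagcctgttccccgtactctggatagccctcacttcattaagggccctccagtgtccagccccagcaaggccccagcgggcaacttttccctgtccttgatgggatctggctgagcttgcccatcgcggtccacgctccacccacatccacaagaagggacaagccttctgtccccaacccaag
The Gja1 window held 1 AP-1 match, TGAGTCA, from 19 to 13 bases before the start. An AP-1 match was present in 6.75% of 32851 promoter windows of the same length, a STAT match in 7.02% and a SOX match in 9.42%. None of the 3 motifs was found in the Gjb6 window or in those of Slc1a2, Glul, Kcnj10 and Slc4a4 (2 windows), and the Slc1a3 window held 1 STAT match, TTCCAAGAA, from 96 to 88 bases before its start. The Slc1a2 window, from 102706188 to 102706437, lies inside the gene as annotated here (from 102658659). Both Slc4a4 windows, from 88887010 and from 89027716, also lie inside that gene. Bases before the annotated first base of these 2 genes were not searched.

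The other genes lie on chromosome 2 from 102658659 to 102790784 (Slc1a2), chromosome 15 from 8634124 to 8710764 (Slc1a3), chromosome 1 from 153899944 to 153909723 (Glul) and from 172341210 to 172374085 (Kcnj10), chromosome 11 from 69599736 to 69605942 (Atp1b2), chromosome 5 from 88886818 to 89239653 (Slc4a4) and chromosome 18 from 15389496 to 15410982 (Aqp4). All are protein coding, and reads were counted over all exons, UTRs included. Counting ignored the strand. Exons of Slc1a2 share 1.44% of their bases with the antisense gene Gm13872, and those of Glul share 3.49% with Teddm2 on the opposite strand and 2.80% with Mir8114 on the same strand. Under the counting defaults, a read shared with such a gene is not counted for either gene.

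**Figure D1:**
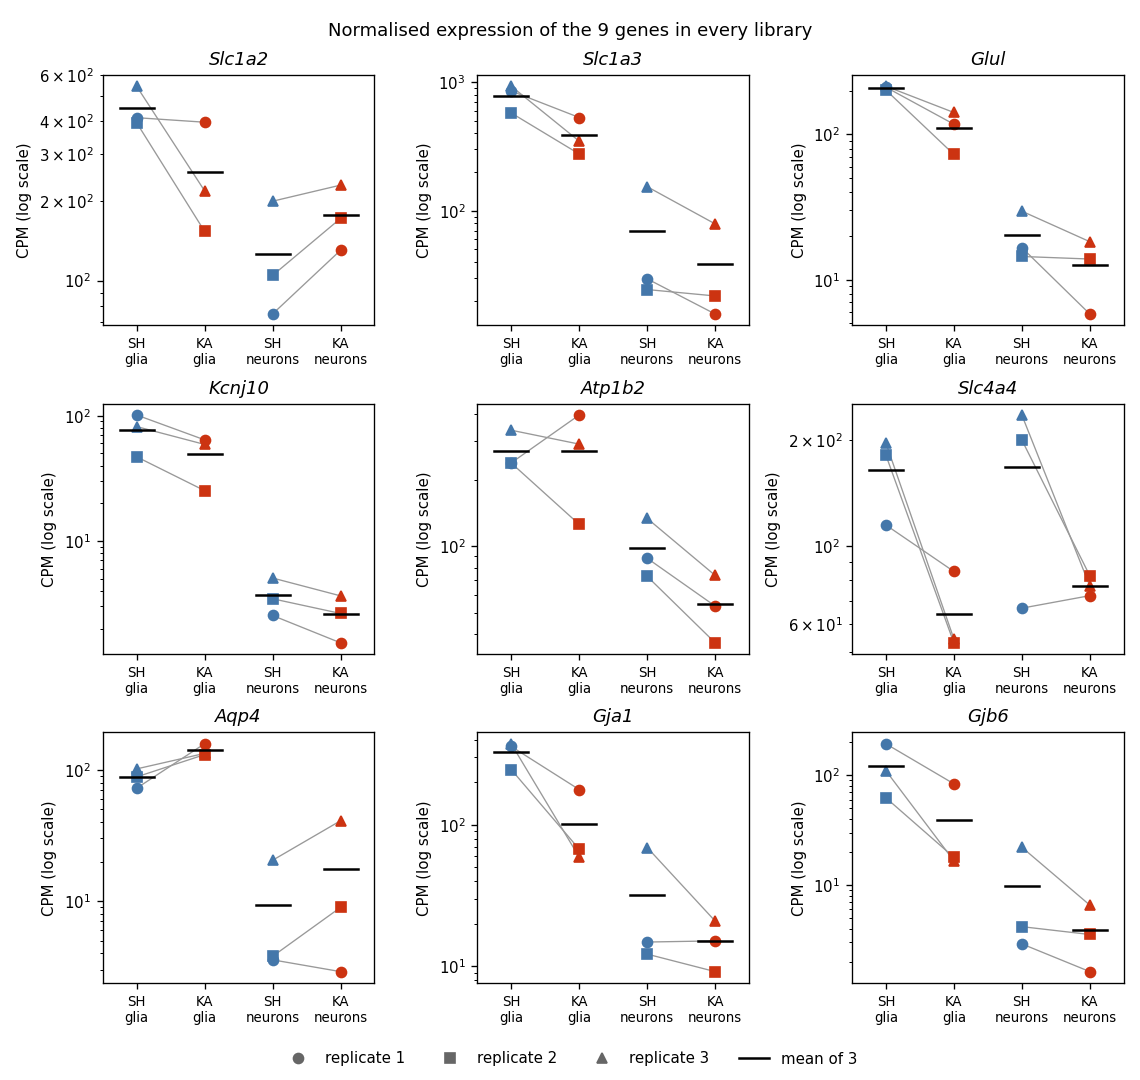
Normalised expression of the 9 genes (CPM, log axis) in each of the 12 libraries, with lines joining SH and KA libraries of the same fraction and replicate number and bars at the mean of 3. In glia, KA lies below SH on all 3 lines for 7 of the 9 genes and above it on all 3 for Aqp4.

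The 2 fractions were compared first, over both treatments. This cannot tell astrocytes from other NeuN- cells, since all 8 oligodendrocytic and all 10 microglial marker genes were higher in glia too. Of the 9 genes, 8 were higher in glia than in neurons, against 10.9% of all genes tested. Kcnj10 had the largest logFC between the fractions, 4.29 (95% interval 3.57 to 5.02, FDR 1.05e-06 with edgeR), followed by Gjb6 at 3.48, Slc1a3 at 3.41, Glul at 3.24, Aqp4 at 3.11 and Gja1 at 3.05. Atp1b2 differed less, with a logFC of 1.89, and Slc1a2 least among the 8, with 1.18 (0.50 to 1.87, FDR 0.0144 with edgeR). Slc4a4 did not pass the threshold, and its interval, from -0.78 to 0.48, covers differences in either direction. With a block by pool the same 8 genes passed, beside 15.4% of all genes.

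The share of each gene found in neurons, as CPM in neurons over CPM in glia of the same pool, was between 1.5% and 39.8% in all 6 pools for the genes other than Slc1a2 and Slc4a4. The shares differed between pools. The median share over the 9 genes was 4.94% in both KA and SH pools of replicate 1, 19.1% and 7.15% in those of replicate 2, and 30.7% and 20.03% in those of replicate 3. For Slc1a3 it was 3.46% and 4.22% in SH pools 1 and 2 but 16.5% in SH pool 3, and for Gjb6 1.5%, 6.68% and 20.03%. Slc4a4 had CPM in neurons near or above those in glia in all pools but SH pool 1, with shares of 58.0%, 110.4% and 120% in SH and 85.4%, 155% and 141% in KA pools. Such shares compare CPM scaled within each library and not amounts of RNA. Slc1a2 had 18.1%, 26.4% and 36.7% in SH pools and 32.8%, 112% and 105% in KA pools. Its mRNA is known from some hippocampal pyramidal neurons as well as from astrocytes. How much of these shares comes from carried over nuclei or RNA was not tested.

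**Figure D2:**
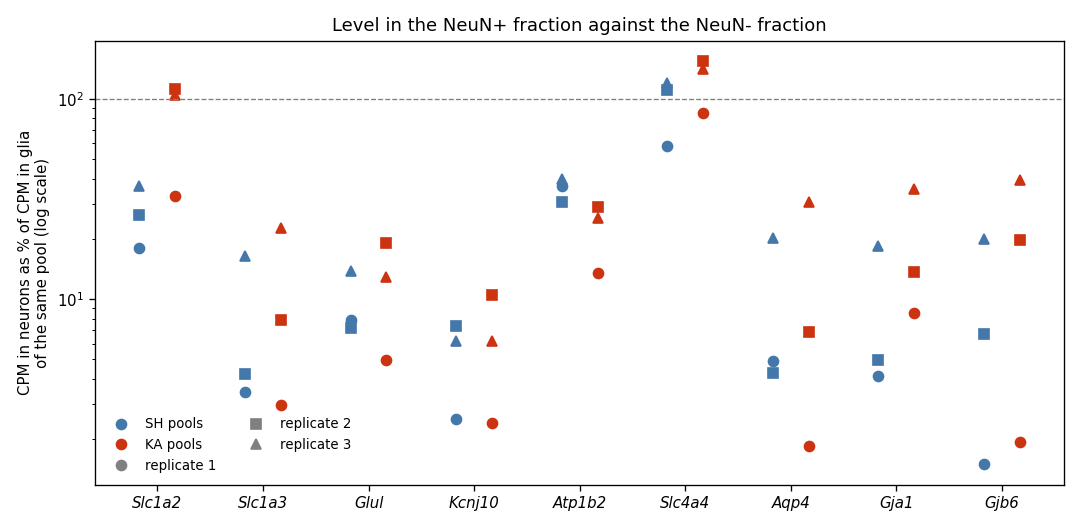
CPM in neurons as a percentage of CPM in glia of the same pool (log axis) for each gene and each of 3 SH and 3 KA pools, with a dashed line at equal levels. Slc4a4 lies around the line, Slc1a2 reaches it in 2 KA pools, and most other genes lie highest in the pools of replicate 3.

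Levels of different genes were compared per kilobase of exon. In SH glia the order was Slc1a3 with 92.3 ± 21.9 CPM per kb, Atp1b2 with 66.5 ± 13.8, Glul with 63.0 ± 1.96, Gjb6 with 45.8 ± 24.9, Slc1a2 with 34.3 ± 6.15 and Gja1 with 31.8 ± 6.81 (SD, n = 3). Slc4a4, Kcnj10 and Aqp4 followed, with 15.2 ± 4.01, 14.2 ± 5.09 and 14.0 ± 2.34 CPM per kb. The only neighbours in this order whose libraries did not overlap were Gja1 and Slc4a4. In KA glia Atp1b2 stood at the top with 66.3 ± 33.2 CPM per kb, Aqp4, last in SH, stood between Glul and Slc1a2 with 22.5 ± 2.41, and Gja1 had 9.87 ± 6.45 (SD, n = 3). All neighbours overlapped there.

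In glia, 8 of the 9 genes had a negative logFC, with a median of -0.92 beside 0.14 over all genes tested, but none passed the threshold in the fit without a block. At this threshold 0.306% of all genes were lower and 0.442% higher in KA. At an unadjusted p below 0.05, 4 of the 9 (Glul, Gja1, Gjb6 and Slc4a4) were lower, against 2.69% of all genes. KA libraries lay below all SH libraries for 4 of the 9 (Slc1a3, Glul, Gja1 and Slc4a4), against 3% of all genes, and above them for Aqp4, against 3.61%. Within pairs, KA was lower than SH in all 3 pairs for 7 of the 9, against 14.3% of all genes, and higher in all 3 for Aqp4, against 19.3%. With the replicate block, edgeR called those 7 genes lower (Slc1a2, Slc1a3, Glul, Kcnj10, Gja1, Gjb6 and Slc4a4) at an FDR below 0.25, where 4.17% of all genes were lower and 3.47% higher. In glia, the pairs of replicates 1 and 2 each set a library from 0.05 ng RNA against a library from 1 ng. Only the pair of replicate 3 had equal input, and the effect of this on the blocked calls was not tested. DESeq2 without a block called 2 of the 9 lower (Gja1 and Slc4a4) and none higher, against 3.23% lower and 1.95% higher of the 18631 genes to which it gave an adjusted p. In bulk libraries of this kind, fewer nuclei of a cell type and less RNA per nucleus cannot be told apart.

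The blocked counts depended on the pools, in fits that then rest on 2 pairs per fraction. Leaving out both libraries of replicate 1 kept 7 of the 9 lower, beside 5.04% of all genes. Leaving out replicate 2 gave 6 lower and 1 higher (Aqp4), beside 4.26% of all genes lower and 1914 of 36962 genes higher. Without the replicate 3 libraries, which stood apart, 2 of the 9 (Gja1 and Gjb6) were lower, beside 0.504% of all genes.

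**Figure D3:**
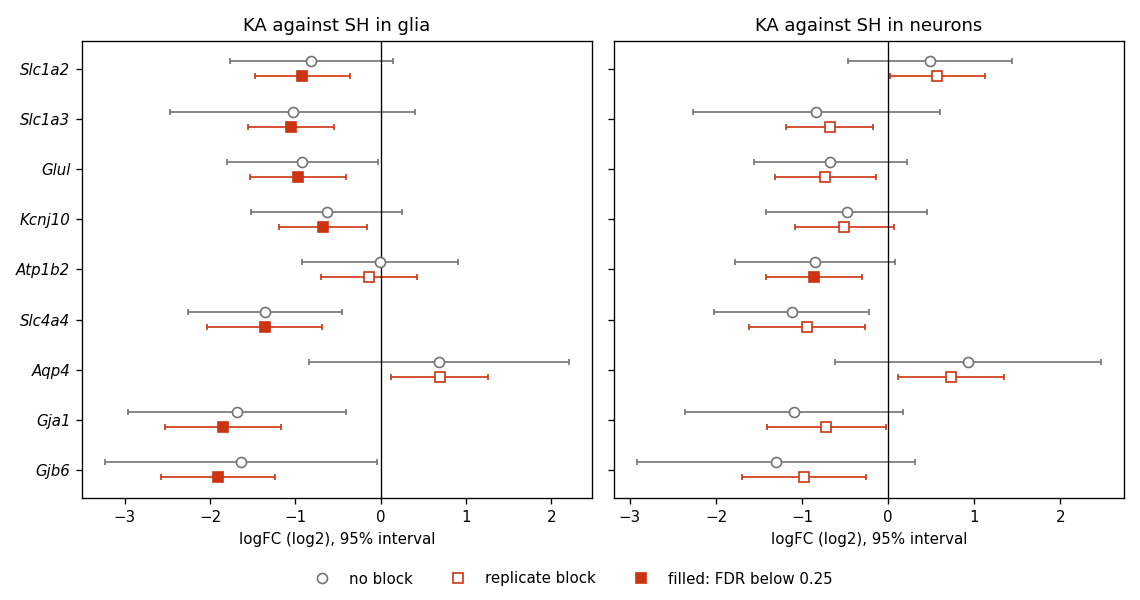
logFC of KA against SH with its 95% interval for the 9 genes in glia (left) and neurons (right), without a block (grey) and with the replicate block (red), filled where the FDR is below 0.25. With the block 7 genes are called in glia and 1 in neurons, and without it none in either.

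Of the glutamate genes, Slc1a2 encodes the transporter responsible for most glutamate uptake in the forebrain. Its expression in glia was 413, 396 and 544 CPM in SH and 397, 154 and 219 CPM in KA replicates 1, 2 and 3. The KA library of replicate 1 lay inside the SH range and the other KA libraries below it. The logFC was -0.81 (SE 0.45, FDR 1.00) without and -0.92 (SE 0.27, FDR 0.0849) with the replicate block in edgeR. Within pairs the log2 ratio was -0.06, -1.37 and -1.31, so replicate 1 hardly moved, and the blocked logFC was -1.44 without that replicate.

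Slc1a3, the transporter that also marks radial glia, had 855, 577 and 932 CPM in SH and 532, 277 and 348 CPM in KA glia. All KA libraries lay below all SH libraries. The logFC was -1.03 (SE 0.68, FDR 1.00) without and -1.06 (SE 0.24, FDR 0.0199) with the block in edgeR. Glul, which converts glutamate and ammonia to glutamine, was the most even gene among the SH glia, at 211, 202 and 215 CPM, and had 118, 72.8 and 142 CPM in KA. Its groups did not overlap either. The logFC of Glul was -0.92 (SE 0.42, FDR 1.00), and with the block -0.97 (SE 0.27, FDR 0.0669 with edgeR).

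Kcnj10, the channel through which astrocytes take up potassium, had 101.3, 47.0 and 81.9 CPM in SH and 64.1, 25.2 and 59.0 CPM in KA glia. The groups overlapped because replicate 2 was lowest in both, while each KA library lay below the SH library of its own number. The logFC was -0.63 (SE 0.42, FDR 1.00) without and -0.68 (SE 0.25, FDR 0.200) with the block in edgeR, the smallest of the 7 that passed there. Atp1b2, a beta subunit of the sodium pump that is also an adhesion molecule of glia, did not follow the other genes. It had 239, 239 and 337 CPM in SH and 395, 126 and 291 CPM in KA glia, so KA replicate 1 was the highest and KA replicate 2 the lowest of all 6 libraries. Its logFC of -0.01 had a 95% interval from -0.92 to 0.91, and with the block -0.14 (-0.70 to 0.42, FDR 0.895 with edgeR).

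Slc4a4, which moves sodium and bicarbonate across the membrane, had 115, 181 and 196 CPM in SH and 84.6, 53.1 and 54.5 CPM in KA glia. The KA libraries all lay below the SH libraries. Its logFC of -1.36 (SE 0.43) had the smallest p of the 9 genes without a block (unadjusted p = 0.00579, FDR 0.448 with edgeR), and the block gave -1.36 (SE 0.32, FDR 0.0264).

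Aqp4, the main water channel of the brain, was the 1 gene of the 9 with a positive logFC in glia. Its expression in glia was 72.4, 88.2 and 102 CPM in SH and 158, 130.5 and 133 CPM in KA replicates 1, 2 and 3. Every KA library lay above every SH library, but neither fit passed the threshold. The logFC was 0.68 (SE 0.72, FDR 1.00) without and 0.69 (SE 0.27, FDR 0.251) with the block in edgeR. The blocked fit missed the threshold by a narrow margin, and whether Aqp4 passed depended on the replicate left out. With the block in edgeR, Aqp4 passed without replicate 2 (logFC 0.76, FDR 0.197). It was far from passing without replicate 1 (logFC 0.37, FDR 0.781) and without replicate 3 (logFC 0.84, FDR 0.5996 with edgeR). The gap between KA and SH was widest in replicate 1, with a log2 ratio of 1.12 against 0.56 and 0.39 in replicates 2 and 3.

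In CPM, the connexins had the most negative logFC of the 9 genes in glia. Gja1, which forms most gap junctions between astrocytes, had 358, 246 and 374 CPM in SH and 177, 67.2 and 59.1 CPM in KA glia. The groups did not overlap. The logFC was -1.69 (SE 0.60, FDR 0.659) without and -1.85 (SE 0.33, FDR 0.00313) with the block in edgeR. Gjb6, the second astrocytic connexin, had 194, 62.5 and 110.4 CPM in SH and 83.9, 17.9 and 16.6 CPM in KA glia. Its KA library of replicate 1 lay inside the SH range, while each KA library lay below the SH library of its number. The logFC of Gjb6 was -1.64 (SE 0.75, FDR 1.00) without and -1.91 (SE 0.32, FDR 0.00192) with the block. Both genes showed log2 ratios that differed between pairs, at -1.01, -1.87 and -2.66 for Gja1 and -1.21, -1.80 and -2.73 for Gjb6 in replicates 1, 2 and 3. They remained below the threshold of 0.25 with the block whichever replicate was left out, with FDR up to 0.201 for Gja1 and 0.196 for Gjb6 without replicate 3.

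Other markers of astrocytes moved in glia as well. Of 7 astrocytic genes outside the 9, 2 were lower (Aldoc, logFC -1.76, FDR 0.245, and Ntsr2, logFC -2.12, FDR 0.110 with edgeR) and none higher, with a median logFC of -1.16, and 5 were lower with the block. Over all genes 0.306% were lower, and 4.17% with the block. Of the 7, 6 were higher in glia than in neurons. CPM of Ntsr2 in neurons was 31.7% to 57.9% of that in glia in SH pools and 76.1% to 195% in KA pools. The summed level of the 7 genes was 899 to 1600 CPM in SH and 394 to 739 CPM in KA glia. Aldoc, an aldolase of astrocytes, had 348, 178 and 267 CPM in SH and 132, 46.7 and 55.9 CPM in KA. By contrast Aldh1l1, a folate enzyme used as a general astrocyte marker, had 38.3, 35.1 and 22.9 CPM in SH and 31.5, 28.3 and 29.1 CPM in KA glia (logFC -0.11, 95% interval -0.87 to 0.64). Sox9, a transcription factor of astrocyte nuclei, had 57.7, 86.8 and 68.6 CPM in SH and 97.3, 55.8 and 81.6 CPM in KA (logFC 0.14, -0.84 to 1.11). All 8 genes of a list for reactive astrocytes had KA libraries above all SH libraries, 4 of them passed the threshold (Serpina3n, logFC 4.45, Timp1 4.71, Cd44 3.35 and S1pr3 3.23) and 8 did with the block, and their summed level was 222 to 269 CPM in SH and 1326 to 2636 CPM in KA glia. Over all genes KA libraries lay above all SH libraries for 3.61%, and 0.442% were called higher without and 3.47% with the block.

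Summed levels of markers of other cell types were also compared between KA and SH glia. The ranges of KA and SH did not overlap for the oligodendrocytic and the lineage genes, and overlapped for the other lists. The 8 oligodendrocytic genes summed to 14181 to 29617 CPM in SH and 7466 to 14058 CPM in KA, with a median logFC of -0.90; none was called, and 4 were lower with the block. Of 5 genes of the oligodendrocyte lineage and its precursors, 1 was lower (Cspg4, logFC -1.44, FDR 0.240), and of 10 microglial genes 2 were (P2ry12, -2.38, FDR 0.0826, and Siglech, -2.18, FDR 0.0295 with edgeR). The summed level was 1757 to 2868 CPM in SH and 784 to 1564 CPM in KA for the lineage genes, and 1119 to 2540 against 831 to 1672 CPM for the microglial genes. The 10 neuronal genes summed to 428 to 1525 CPM in SH and 336 to 1302 CPM in KA glia, with 0 of them called. Endothelial genes summed to 10.7 to 39.2 CPM in SH and 19.5 to 58.1 in KA, and pericytic genes to 61.5 to 121 and 30.5 to 74.8 CPM. Genes of choroid plexus and ependyma summed to 22.5 to 188 CPM in SH and 21.4 to 42.5 in KA glia, and those of blood leukocytes to 2.87 to 16.6 and 5.64 to 22.9 CPM, with none called in either list. With the block in glia, 4 of the 5 lineage genes and 3 of the 10 microglial genes were lower, as were 1 neuronal gene (Snap25, logFC -0.66, FDR 0.170) and 1 pericytic gene (Vtn, logFC -1.41, FDR 0.0273), and 1 endothelial gene was higher (Tek, logFC 1.29, FDR 0.212 with edgeR). Over all genes in glia, 0.306% were lower and 0.442% higher without the block, and 4.17% lower and 3.47% higher with it. The part of these marker shifts in the levels of the 9 genes was not tested.

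Set against the 7 astrocytic markers of the same library (log2 CPM minus the mean log2 CPM of the markers), the 9 genes separated. Slc1a3 stood 2.43 to 2.61 above the markers in SH and 2.46 to 2.60 above them in KA glia, a difference of 0.02 between the means. Slc1a2 (0.16), Glul (0.10) and Kcnj10 (0.40) also had positive differences on this scale, with overlapping groups, so their negative direction in CPM did not hold relative to the markers. Gja1 was 1.23 ± 0.06 above the markers in SH and 0.45 ± 0.55 in KA (SD, n = 3), a difference of -0.77 with no overlap between the groups, and Gjb6 (-0.84) and Slc4a4 (-0.28) had negative differences with overlap. Aqp4 lay -0.66 ± 0.44 from the markers in SH and 1.11 ± 0.27 in KA, a difference of 1.77, and Atp1b2 0.97 ± 0.33 and 1.91 ± 0.50, a difference of 0.93 (SD, n = 3). For both, all KA libraries lay above all SH libraries. These are descriptions, since the markers themselves moved between KA and SH, and Ntsr2 among them was also found in neurons.

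**Figure D4:**
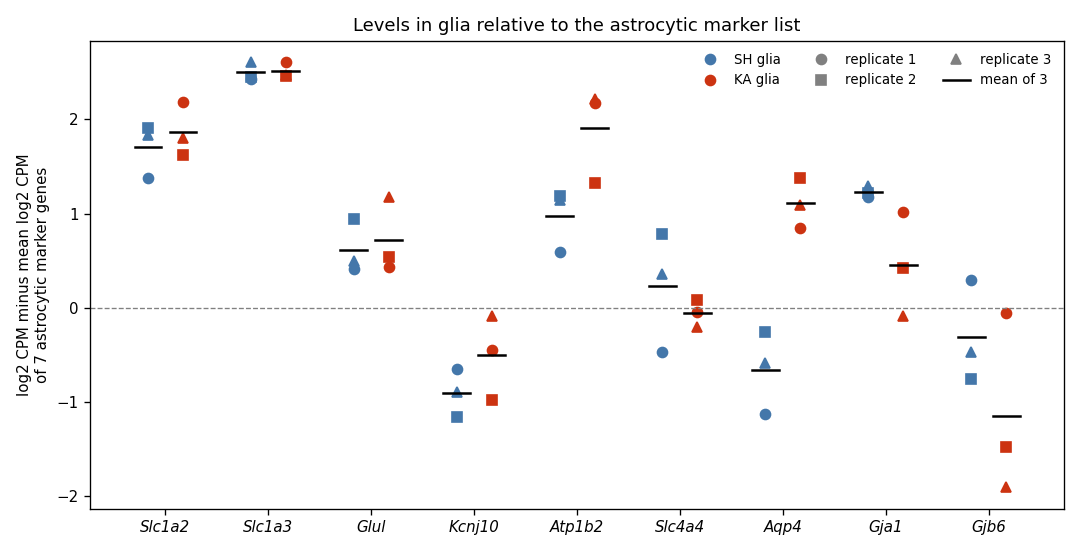
Level of each of the 9 genes in glia as log2 CPM minus the mean log2 CPM of 7 astrocytic markers in the same library, for 3 SH (blue) and 3 KA (red) libraries with bars at the mean. Aqp4 and Atp1b2 lie higher in KA in all libraries, Gja1 lower, and Slc1a3 is level.

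In neurons, none of the 9 genes passed the threshold without a block, where 0.0612% of all genes were lower and 0.279% higher in KA. 7 of the 9 had a negative logFC, with a median of -0.83 beside 0.00 over all genes, and the groups overlapped for each of the 9, while over all genes KA libraries lay above all SH libraries for 5.27% and below them for 4.45%. At an unadjusted p below 0.05 only Slc4a4 was lower (logFC -1.12, unadjusted p = 0.0181 with edgeR), against 1.33% of all genes. DESeq2 called 0 of the 9, against 0.609% lower and 1.27% higher of the 23000 genes to which it gave an adjusted p. With the replicate block 1 of the 9, Atp1b2, was lower (logFC -0.86, SE 0.27, FDR 0.174 with edgeR), beside 1.11% of all genes lower and 1.94% higher. Leaving out replicate 1, 2 or 3 changed this count to 4, 4 and 0 lower, beside 1.5%, 2.45% and 0.0157% of all genes. Atp1b2 was called without replicate 1 (FDR 0.0658) and without replicate 2 (FDR 0.162) but not without replicate 3 (FDR 1.00). Aqp4 was higher without replicate 1 (logFC 1.09, FDR 0.0186), beside 928 of 39430 genes higher. It was not called without replicate 2 (FDR 0.778 with edgeR) or without replicate 3.

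Atp1b2 had 88.3, 73.1 and 134 CPM in SH and 53.6, 36.5 and 73.8 CPM in KA neurons. Its log2 ratio was -0.72, -1.003 and -0.86 in the 3 pairs, the narrowest spread of the 9 genes in neurons, while the groups overlapped. Slc4a4, abundant in neurons, had 66.6, 200.1 and 236 CPM in SH and 72.3, 82.3 and 77.0 CPM in KA neurons. SH replicate 1 lay below all KA libraries and the other SH libraries far above them. The block gave a logFC of -0.94 (SE 0.32, FDR 0.271 with edgeR). Slc1a2 had 74.8, 104.6 and 199.7 CPM in SH and 130.3, 172 and 229.7 CPM in KA neurons, higher in KA in all 3 pairs, with a logFC of 0.49 (95% interval -0.47 to 1.44) and with the block 0.57 (0.03 to 1.12, FDR 0.577 with edgeR).

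For Slc1a3, Gja1, Gjb6 and Aqp4 in neurons, the SH library of replicate 3 was far above the other SH libraries. Slc1a3 had 29.5, 24.4 and 154 CPM in SH and 15.7, 21.7 and 79.0 CPM in KA neurons, Gja1 14.8, 12.2 and 69.1 against 15.1, 9.16 and 20.9 CPM, and Gjb6 2.90, 4.17 and 22.1 against 1.62, 3.54 and 6.56 CPM. Without that library the logFC without a block turned from -0.83 to 0.53 for Slc1a3, from -1.09 to 0.16 for Gja1 and from -1.30 to 0.16 for Gjb6. Aqp4 had 3.57, 3.79 and 20.5 CPM in SH and 2.90, 8.95 and 40.9 CPM in KA neurons, and its logFC turned from 0.93 to -0.63 without KA neurons replicate 3. Glul, at 16.6, 14.5 and 29.6 CPM in SH and 5.81, 13.9 and 18.3 CPM in KA neurons, and Kcnj10, at 2.54, 3.46 and 5.06 against 1.54, 2.64 and 3.65 CPM, were lower in KA in all 3 pairs without passing the threshold. The lowest count behind any of these values was 18 reads, for Kcnj10 in KA neurons replicate 1.

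Whether KA acted differently on glia and neurons was tested as the difference of the 2 logFC. None of the 9 genes and 0% of all genes passed, with none of the 9 at an unadjusted p below 0.05 in edgeR and none called by DESeq2. Slc1a2 came nearest, with a difference of -1.30 (95% interval -2.66 to 0.05, unadjusted p = 0.0579, FDR 1.00 with edgeR). With a block by pool it was -1.50 (FDR 0.483), and 0.471% of all genes passed but none of the 9. For Gja1 the difference was -0.60 (-2.37 to 1.17) and for Atp1b2 0.84 (-0.46 to 2.15), intervals wide enough to hold equal responses as well as several-fold differences.

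The genes whose profile over the 12 libraries was most like the mean profile of the 9 were sought among 14936 genes with a mean of at least 5 CPM, as the root mean square difference of log2 CPM after centring each gene. They were Acsbg1 (0.21), an acyl-CoA synthetase found in astrocytes, Slc12a2 (0.30), the sodium, potassium and chloride cotransporter NKCC1, Pbxip1 (0.30), Cyp2d22 (0.32), a cytochrome P450, and Fgfr3 (0.32), a growth factor receptor of astrocytes. The median over all candidates was 1.72. Among the 9 themselves, Glul was nearest to the mean profile (0.44) and Slc4a4 farthest (1.52), with Aqp4 next (1.01). The likeness describes the fraction, the treatment and the library together, as all libraries entered it. In glia KA against SH, the logFC of Acsbg1 was -1.16 and that of Slc12a2 -0.98, neither past the threshold.

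Further genes of the same pathways were examined in glia from lists written around the 9 genes. Of 19 genes of glutamate and GABA uptake and metabolism, 3 were lower and 0 higher, with a median logFC of -0.40. Over all genes 0.306% were lower and 0.442% higher. Grm3, the glutamate receptor mGluR3 of astrocytes, had 185, 172 and 257 CPM in SH and 63.6, 38.8 and 42.8 CPM in KA glia (logFC -2.08, SE 0.39, FDR 0.0439 with edgeR). Pcx, pyruvate carboxylase, which replenishes the carbon skeleton for glutamine synthesis in astrocytes, had 123, 80.8 and 141 CPM in SH and 22.9, 28.9 and 37.3 CPM in KA (logFC -1.95, SE 0.36, FDR 0.0438). Slc6a11, the GABA transporter GAT-3, had 105, 130.4 and 154 CPM in SH and 60.8, 34.7 and 24.8 CPM in KA (logFC -1.70, SE 0.39, FDR 0.128 with edgeR). For each of these 3 genes all KA libraries lay below all SH libraries, against 3% of all genes. With the block 7 of the 19 were lower and 1 higher, beside 4.17% and 3.47% of all genes.

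With the block in glia, 4.17% of all genes were lower and 3.47% higher, for comparison with the counts that follow. Of 15 genes of potassium transport, the sodium pump and volume regulation, 0 passed without a block (median logFC -0.74), and 8 were lower and 1 higher with it. Of 10 genes of water channels and their anchoring, 0 passed (median -0.32) and 1 was lower with the block, and none of them was higher in either fit. Of 9 other connexins and pannexins, 0 passed (median -0.64) and 3 were lower with the block. Of 8 genes of bicarbonate, pH and lactate transport, 0 passed (median 0.06), with 2 higher and 1 lower with the block. In neurons none of these 61 genes passed without a block. With the block in neurons, 5 of the 61 were lower and 1 was higher, beside 1.11% of all genes lower and 1.94% higher. These 61 genes include those named next, which were named after their values were seen. The lower ones were Hepacam (logFC -1.08, FDR 0.0428), Aqp11 (-1.22, FDR 0.0679), Gjc3 (-1.09, FDR 0.0501), Panx2 (-0.89, FDR 0.213) and Car14 (-1.47, FDR 0.0590 with edgeR), and Kcnk10 was higher (0.77, FDR 0.249).

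**Figure D5:**
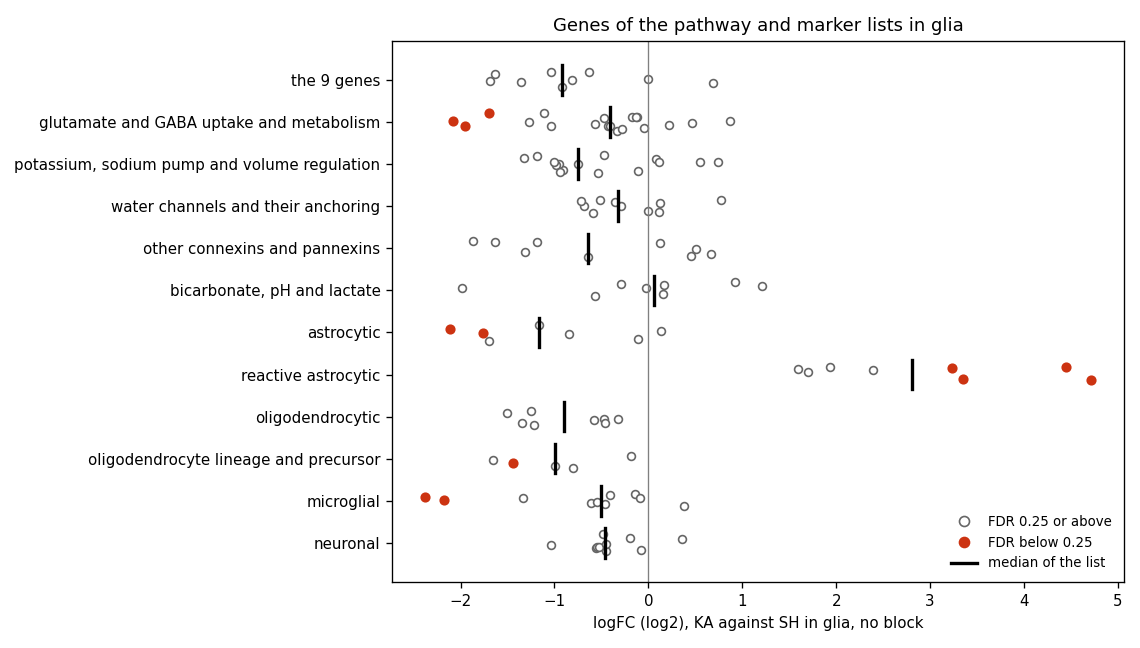
logFC of KA against SH in glia without a block for the 9 genes, 5 pathway lists and 6 marker lists, with 1 point per gene, filled at an FDR below 0.25, and bars at the median of each list. The medians of the 9 genes and of the astrocytic, oligodendrocytic and precursor lists lie near -1, and the reactive astrocytic genes lie apart at 1.59 to 4.71.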

How the data were processed

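The authors trimmed the reads with Trim Galore 0.4.3, aligned them to mm10 with Rsubread and counted uniquely mapped reads per gene with featureCounts (default parameters, GENCODE M16), and deposited raw counts of 53379 genes in 12 libraries. Under these defaults strand is ignored and a read shared by several genes is not counted. RRBS data of 12 samples were not used here.

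Symbols and exon lengths came from GENCODE M21, which names 53274 of the genes. Counts were filtered with filterByExpr (minimum count 10, minimum total 15) and scaled by TMM, and 4 group means were fitted to the 12 libraries with edgeR 4.0.16 (glmQLFit, legacy=TRUE; R 4.3.3, limma 3.58.1). KA against SH in each fraction, the difference of these effects and glia against neurons were tested with glmQLFTest. Standard errors were computed as logFC over the square root of F. Log2 CPM used a prior count of 2. The tests were tried on simulated data.

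No pairing of KA and SH pools is stated. The replicate number was checked as a pairing by correlating, across genes, the deviations of same-numbered KA and SH libraries from their group means, which gave 0.399, 0.264 and 0.551 in neurons and 0.457, 0.543 and 0.764 in glia, against -0.671 to 0.349 for libraries of different numbers. Between replicates 1 and 2, libraries of different numbers gave 0.349 and 0.222 in glia and 0.142 and -0.116 in neurons. Deviations from a mean of 3 cancel within a group. A replicate 3 that stands apart the same way in KA and SH thus raises same-number values and lowers its values with other numbers. For this reason the check cannot settle whether replicates 1 and 2 were paired by number. A replicate block was still fitted beside each test. Alternatives were separate fits, RLE scaling, DESeq2 1.42.0, edgeR 4 (legacy=FALSE), other filters, all gene IDs, an FDR of 0.05, the block, levels relative to astrocytic markers, and libraries left out; the fits without replicate 3 and the block without each replicate were added after the data were seen. The 9 genes, the lists and the rule for named genes (the 9, pathway genes past the threshold, Aldh1l1, Aldoc and Sox9, marker genes past the threshold in glia, and the 5 most similar profiles) were chosen with earlier results of these data known. The replicate is the pool, with 3 pools per group. P values of the fit without a block measure the spread within the 4 groups, shared over the 12 libraries. That fit treats the 2 libraries of a pool as independent. With the replicate block, P values measure the spread left after an effect of replicate number within each fraction is removed.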

Additional observations from a re-analysis of the deposited data

Results flagged for a closer look

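Slc1a2 was the only gene among those named here whose pairs all moved 1 way in glia and all the opposite way in neurons: KA was lower than SH in all 3 pairs of glia libraries and higher in all 3 pairs of neurons. The KA effect in glia minus that in neurons was -1.30 on the log2 scale (95% interval -2.66 to 0.05), with an unadjusted p of 0.0579 and an FDR of 1.00 in edgeR, so the difference did not pass the test. It stayed between -1.80 and -1.04 when each of the 12 libraries was left out in turn.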

How the results depend on the processing

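The 8 genes higher in glia than in neurons passed under every alternative run, and no alternative gave a call for the difference between the fractions among the 9 genes. For KA against SH in glia, 0 of the 9 were lower under separate fits, RLE scaling, edgeR 4, no filter, all gene IDs, an FDR of 0.05, without the low-input libraries, without the replicate 3 pools and with each single library left out. DESeq2 gave 2 lower, a filter of 10 counts in every library 3 (Glul, Gja1 and Slc4a4), and the replicate block 7. With the replicate block and 1 replicate left out, the count lower in glia ranged from 2 to 7 and that higher from 0 to 1. In neurons the replicate block gave 1 lower, and with 1 replicate left out 0 to 4 lower and 0 to 1 higher. The replicate block changed no other call of the 9 genes.

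Counts over all genes moved far more. In glia 166 genes were higher and 115 lower. These became 364 and 602 with DESeq2, 287 and 228 with edgeR 4, 443 and 760 with 10 counts in every library, 51 and 11 at an FDR of 0.05, 1305 and 1566 with the replicate block, 40 and 1 without the low-input libraries, and 6 and 0 without the replicate 3 pools, and 17 were lower in a fit of glia alone. With 1 library left out they ranged from 66 to 314 higher and from 6 to 240 lower, and with the replicate block and 1 replicate left out 134, 1114 and 1914 higher and 192, 1576 and 1986 lower. In neurons 105 were higher and 23 lower. These became 409 and 247 in a fit of neurons alone, 292 and 140 with DESeq2, 194 and 59 with edgeR 4, 329 and 136 with 10 counts in every library, 17 and 1 at an FDR of 0.05, 730 and 417 with the replicate block, and 24 and 0 without the replicate 3 pools; 9 were lower without a filter and 6 without the low-input libraries. With 1 library left out they ranged from 10 to 126 higher and from 0 to 17 lower, and with the replicate block and 1 replicate left out 102, 928 and 942 higher and 6, 592 and 906 lower. Some of these fits rest on fewer libraries or genes, and the cause of the changes was not tested.

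Some directions turned, all for values short of the threshold in the fit without a block. The logFC of Atp1b2 in glia, -0.01, became 0.14 in a fit of glia alone, 0.049 with 10 counts in every library, 0.051 without the low-input libraries, 0.12 without the replicate 3 pools and 0.26 with the replicate block without replicate 2, and ranged from -0.39 to 0.21 with 1 library left out. Relative to the astrocytic markers, Slc1a2 turned to 0.16, Slc1a3 to 0.017, Glul to 0.10, Kcnj10 to 0.40 and Atp1b2 to 0.93. In neurons, with 1 library left out, Slc1a3 ranged from -1.89 to 0.53, Aqp4 from -0.63 to 2.26, Gja1 from -1.48 to 0.16 and Gjb6 from -1.88 to 0.16. The difference between the fractions ranged from -1.57 to 0.85 for Slc1a3, -0.63 to 0.11 for Glul, -0.45 to 0.18 for Kcnj10, -1.58 to 1.31 for Aqp4, -1.80 to 0.31 for Gjb6 and -0.57 to 0.13 for Slc4a4 with 1 library left out. Without the low-input libraries it was 0.23 for Kcnj10 and 0.20 for Gjb6, and without the replicate 3 pools 0.12 for Aqp4. Slc4a4 in glia against neurons, -0.15, became 0.024 with RLE scaling, 0.024 with DESeq2, 0.19 with 10 counts in every library and 0.18 without the low-input libraries, and ranged from -0.36 to 0.35 with 1 library left out. The lowest count among the 9 genes was 404 in glia and 18 in neurons, and the effect of depth was not tested.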
